A study of Mus musculus with 2 samples.

Results

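The IFIT and OAS antiviral families were followed through 10 genes, Ifit1, Ifit2, Ifit3, Ifit3b, Oas1a, Oas2, Oas3, Oasl1, Oasl2 and Eif2ak2, out of 32285 genes listed in each matrix. They were taken by gene symbol, and each symbol occurs once. Expression was measured by droplet single-cell RNA sequencing of brain cells selected for CD11b, a myeloid surface integrin, from untreated C57BL/6J mice aged 18 months. There is 1 library of wild-type mice (labelled WT) and 1 of mice lacking CD200R1, an inhibitory receptor of myeloid cells (labelled KO, CD200R1-/-). The study asks what loss of this receptor does to brain border macrophages and T cells in Parkinson's disease. The labels give no disease model, no treatment and no number of mice for either library, and they do not say which part of the receptor gene is missing.

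With 1 library a group there is no replicate error and no p-value, so every difference below is between 2 libraries. Intervals are 95% and cover counting error of UMIs (unique molecular identifiers, counted transcripts) only. The targeted gene, Cd200r1, was detected in both libraries: over all kept cells it had 1488 UMIs, or 12.8 counts per 1000000 UMIs (CPM), labelled WT and 1418 UMIs, or 12.1 CPM, labelled KO, a ratio of 0.944 (0.877 to 1.02). In the myeloid classes it was lower labelled KO but far from missing, at 23.5 and 21.3 CPM in microglia-like cells (ratio 0.905, 0.826 to 0.993) and at 34.1 and 23.5 CPM in CNS-associated macrophage-like cells (0.691, 0.567 to 0.843). A 3′ tag outside a deleted stretch would not show the deletion, so the genotypes rest on the labels, and so does the direction of every comparison. The matrices held 18228 and 19159 barcodes labelled WT and KO, with 127429919 and 131196245 UMIs, and 103 barcodes (0.565% and 0.538%) occurred in both. After filtering, 16460 and 17117 cells remained, with a median of 4050 and 4164 UMIs. Cells were clustered without interferon-induced genes and named from marker genes, which gave 12 classes to compare. Clusters that met no naming rule held 41.1% and 32.2% of cells. Many named cells were of types that do not make CD11b, such as endothelial, mural, astrocyte, choroid plexus and ependymal cells. Called doublets were removed (0.849% and 3.07% of cells). These were fewer than the 14.6% and 15.3% assumed from the number of barcodes, so doublets probably remain.

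These genes belong to the response by which cells resist viruses. Interferon, or a virus itself, turns them on through transcription factors of the STAT and IRF families, which bind short GAAA-containing elements near the start sites. IFIT proteins bind viral RNA whose cap lacks the marks of cellular messenger RNA and block its translation. OAS enzymes sense double-stranded RNA and make 2′-5′ linked oligoadenylates, a signal that leads to decay of RNA, while OASL proteins are relatives without that output or with little of it. PKR, the product of Eif2ak2, senses double-stranded RNA and stops translation by phosphorylating the initiation factor eIF2 alpha. In brain, microglia and endothelial cells are known to express the response at a low tonic level.

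In GENCODE vM21 (GRCm38) the 10 genes lie at 4 places. The 4 Ifit genes fall within 99.3 kb on the plus strand (chr19:34550694-34650009), where Ifit1bl1 (chr19:34592891-34601956), a relative outside the set on the minus strand, lies between Ifit3 (chr19:34583531-34588731) and Ifit3b (chr19:34607970-34613401). Oas1a, Oas2 and Oas3 fall within 177 kb on the minus strand (chr5:120730333-120907521), and Oasl1 and Oasl2 within 41.0 kb on the plus strand (chr5:114896936-114937915). Eif2ak2 is at chr17:78852564-78882573 on the minus strand. Some reads cannot be assigned with certainty between near-identical genes. The Ifit3 and Ifit3b transcripts were identical at 1663 of 1697 aligned bases (98.0%), and 30.1% of the 91-base windows of Ifit3b also occur in Ifit3. Over the last 500 bases, nearer the 3′ tag, only 197 bases aligned, of which 187 (94.9%) were identical. Oas1a was 97.7% identical to Oas1g, a neighbour outside the set, whose windows occurred in Oas1a in 40.4% of cases. Genes on the opposite strand overlap Oas2 (Gm43068), Oasl1 (Gm13822) and Eif2ak2 (n-R5s29 and Gm26637).

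The promoters of 9 of the 10 genes were matched in a RefSeq table on GRCm38.p6, as windows from 250 bases before to 50 bases after the start site. The core of the interferon response element, GAAA followed by any 2 bases and GAAA again, on either strand, was present in 6 of these 9 genes: Ifit1, Ifit3, Ifit3b, Oas1a, Oas3 and Eif2ak2. Of all 27025 genes with a window of that length, 1079 (3.99%) held it in at least 1 window. By windows it occurred in 1131 of 32851 (3.44%), and 74 windows (0.225% of all) held 2 or more matches. Of 16 other interferon-stimulated genes with a window, 8 held it. The stretches below are shown because they carry the matches that lie before the start site, in the 5 genes that have them, printed 5′ to 3′ on the gene's strand with each match in capitals. No such letters were found in the windows of Ifit2, Oasl1 and Oasl2, and the match of Eif2ak2 began 19 bases after its start site.
Ifit1, plus strand, chr19:34640765-34640833: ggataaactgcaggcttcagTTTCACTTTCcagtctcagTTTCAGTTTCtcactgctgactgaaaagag
Ifit3, plus strand, chr19:34583353-34583436: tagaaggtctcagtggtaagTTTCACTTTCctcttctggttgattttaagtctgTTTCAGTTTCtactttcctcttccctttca
Ifit3b, plus strand, chr19:34607749-34607832: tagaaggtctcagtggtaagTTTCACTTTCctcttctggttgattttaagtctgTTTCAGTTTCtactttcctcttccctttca
Oas1a, minus strand, chr5:120907526-120907565: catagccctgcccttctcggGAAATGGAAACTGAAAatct
Oas3, minus strand, chr5:120777705-120777754: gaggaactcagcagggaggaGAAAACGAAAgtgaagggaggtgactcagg

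Ifit1, Ifit3 and Ifit3b each carried the same pair of matches, TTTCACTTTC and TTTCAGTTTC, which read as the element on the opposite strand. The Ifit3 and Ifit3b windows were identical at 259 of 260 aligned bases (99.6%), and the stretches printed for them are the same letters. Oas1a held 2 matches that overlap by 4 bases just before its start site.

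**Figure D1:**
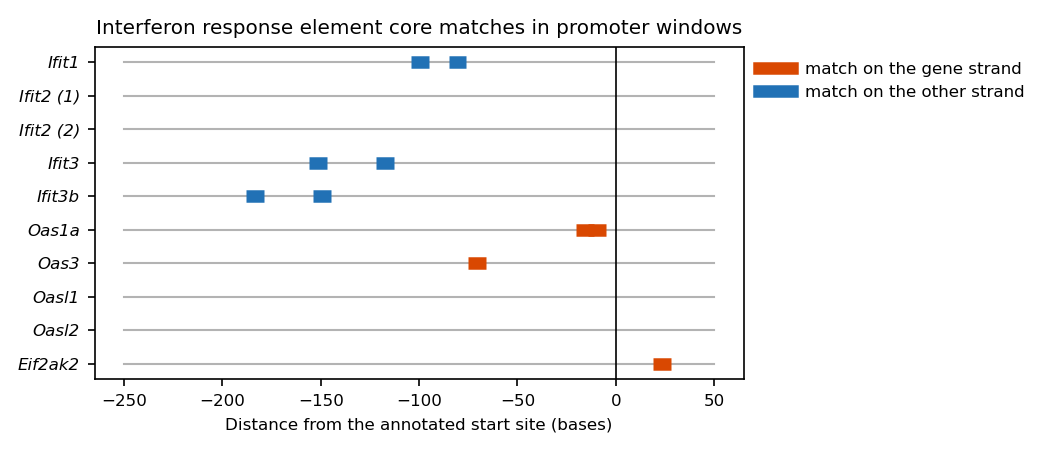
Positions of matches to GAAA, any 2 bases, GAAA in the promoter windows of the members, with distance from the annotated start site in bases on the horizontal axis and 1 row per window (Ifit2 has 2). Blocks are matches on the gene's strand or on the other strand: Ifit1, Ifit3 and Ifit3b have 2 each on the other strand, Oas1a has 2 overlapping matches, Oas3 has 1, and the match of Eif2ak2 lies after the start site.

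Summed over the 10 genes, the level was higher in the library labelled KO in 11 of 12 classes and lower in ependymal-like cells. Over all kept cells it was 284 CPM (281 to 287) labelled WT and 812 CPM (807 to 817) labelled KO, a ratio of 2.86 (2.83 to 2.90). A gene is counted as higher or lower below where its CPM, with 10 added to both libraries, was above that of the other library by at least 25%, among genes with at least 20 UMIs. All 10 genes counted as higher, against 1.23% of all genes. Their median log2 difference was 1.06, beside 0.00 over all genes. Across 120 pairs of a gene and a class, 102 had the 20 UMIs needed to be counted, and 83 of these counted as higher and 2, Ifit3 and Ifit3b in ependymal-like cells, as lower. Of all genes, the share counted as higher ran from 1.08% in microglia-like to 17.1% in T cell-like cells. In ependymal-like cells 4.98% of all genes were lower. Without the added 10 CPM, the counting interval of the ratio lay above 1 in 84 pairs and below 1 in 4. No share over all genes is given for these intervals, so these counts are not read as a result about the 10 genes.

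**Figure D2:**
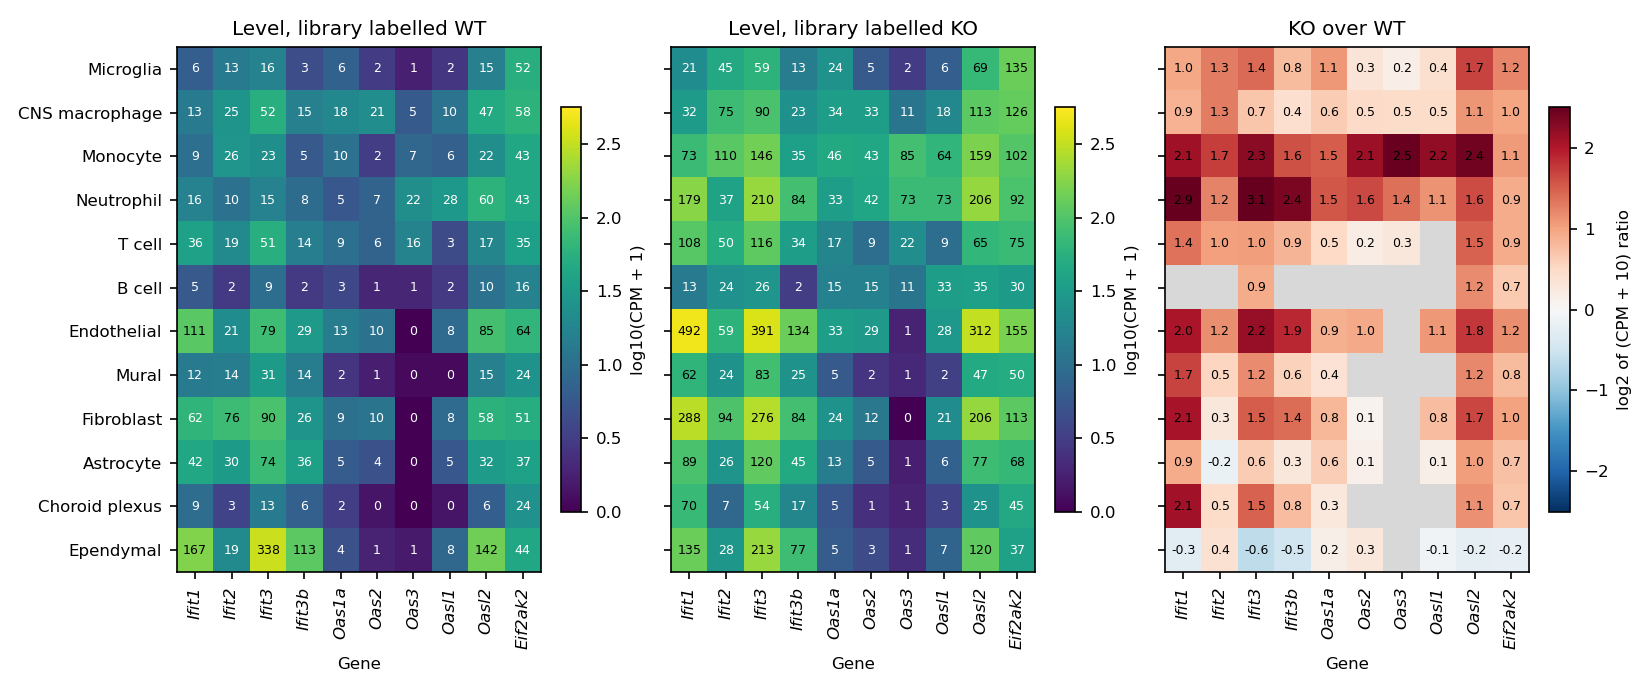
Levels of the 10 genes in 12 cell classes, as CPM of the class printed in each cell and coloured by log10(CPM + 1), labelled WT (left) and labelled KO (middle), with the log2 ratio of (CPM + 10) on the right. Grey marks pairs with under 20 UMIs; red covers the right panel except most of the ependymal row, where Ifit3 is at -0.64, and Ifit2 in astrocyte-like cells.

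In the library labelled WT the ependymal-like class had the highest summed level, 835 CPM (805 to 867), followed by endothelial-like cells at 420 CPM (411 to 430). Fibroblast-like cells were at 390 CPM (349 to 434), an interval that overlaps that of endothelial-like cells. CNS-associated macrophage-like (252 to 279) and astrocyte-like cells (246 to 285) were both at 265 CPM. Below their intervals came neutrophil-like cells at 214 CPM (197 to 233) and T cell-like cells at 207 CPM (185 to 231), which overlapped each other. Microglia-like cells were low, at 114 CPM (111 to 118), next to mural-like cells at 112 CPM (104 to 121), and only choroid plexus epithelial-like (62.1 CPM) and B cell-like cells (50.1 CPM) were lower. Labelled KO, endothelial-like cells came first at 1635 CPM (1615 to 1656), then fibroblast-like at 1119, neutrophil-like at 1030 and monocyte-like cells at 863 CPM. The fibroblast-like and neutrophil-like intervals overlapped, while the monocyte-like interval (822 to 907) lay below both. Ependymal-like cells followed at 626 CPM (605 to 647), and microglia-like cells were at 378 CPM (372 to 384), above mural-like, choroid plexus epithelial-like and B cell-like cells only. Unnamed clusters are not in this order. Cluster 9, which met 12 endothelial markers, was at 558 CPM (545 to 572) labelled WT and 1873 CPM (1843 to 1904) labelled KO. Cluster 12, with 12 endothelial and 10 mural markers, was at 544 and 1616 CPM.

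The ratio of the summed level, labelled KO over labelled WT, was 5.65 (4.97 to 6.43) in monocyte-like, 4.81 (4.34 to 5.33) in neutrophil-like and 4.07 (2.86 to 5.84) in B cell-like cells, with intervals that overlap. The order of these classes depended on the processing: with cells thinned to 1500 UMIs the ratio was 6.91 in monocyte-like and 12.04 in B cell-like cells, the latter from few UMIs. With every cell weighted equally it was 8.66 in monocyte-like, 5.46 in neutrophil-like and 6.47 in B cell-like cells. It was 3.89 (3.79 to 3.99) in endothelial-like cells, 3.65 (3.05 to 4.39) in choroid plexus epithelial-like cells and 3.31 (3.20 to 3.42) in microglia-like cells. CNS-associated macrophage-like cells, the class named in the study's title, had a smaller ratio of 2.09 (1.97 to 2.21), from a level in the library labelled WT that was above that of microglia-like cells. Astrocyte-like cells were at 1.70 (1.56 to 1.86), and their deeper cluster 20 was at 1.55 (1.41 to 1.70) against 2.71 (2.18 to 3.39) in the shallower cluster 14. The other ratios were 2.87 (2.55 to 3.25) in fibroblast-like, 2.68 (2.44 to 2.94) in mural-like and 2.43 (2.13 to 2.77) in T cell-like cells. The mural-like cluster with the most cells was cluster 7 in the library labelled WT and cluster 22 in the library labelled KO, where the ratios were 2.28 and 2.77. The 8 unnamed clusters with enough cells all had a higher sum labelled KO, with ratios between 1.77 in cluster 17 and 4.13 in cluster 27. Weighting every cell equally gave 2.12 in choroid plexus epithelial-like cells.

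**Figure D3:**
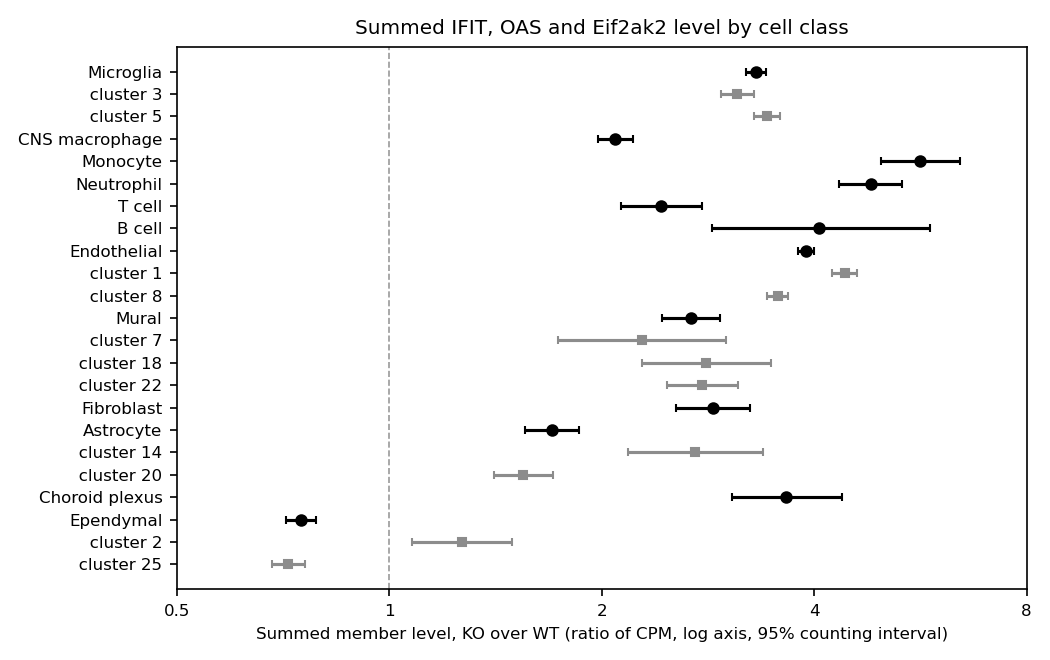
Ratio of the summed level of the 10 genes, labelled KO over labelled WT, on a log axis, for 12 classes (black circles) and for the clusters of classes made of more than 1 cluster (grey squares). Bars are 95% counting intervals, the dashed line is a ratio of 1, and only the ependymal-like class, at 0.749, lies below it, through its cluster 25.

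The IFIT genes were led by Ifit1 or Ifit3 in most classes. Ifit1, the reader of incompletely capped RNA, was at 5.59 CPM (4.89 to 6.38) labelled WT and 20.6 CPM (19.3 to 22.0) labelled KO in microglia-like cells, a ratio of 3.69 (3.18 to 4.29). In endothelial-like cells it went from 111 CPM (107 to 116) to 492 CPM (481 to 504), which made it the most abundant of the 10 genes there in both libraries. It was 11.4-fold higher (8.10 to 16.3) in neutrophil-like cells, at 15.8 and 179 CPM, and 8.15-fold (5.17 to 13.6) in choroid plexus epithelial-like cells, at 8.57 and 69.9 CPM. Border macrophages, the class called CNS-associated macrophage-like here, had 12.9 and 31.8 CPM, a ratio of 2.46 (1.91 to 3.21).

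Ifit2 was at 12.8 CPM (11.7 to 13.9) and 44.9 CPM (42.9 to 47.0) in microglia-like cells labelled WT and KO, 3.52-fold (3.19 to 3.89) higher. Of the 10 genes it had the largest ratio in CNS-associated macrophage-like cells, at 25.3 and 75.3 CPM, a ratio of 2.97 (2.49 to 3.57). In fibroblast-like cells it was high in both libraries, at 75.6 CPM (58.4 to 96.4) and 94.3 CPM (77.7 to 113), with overlapping intervals and a log2 difference of 0.28. In astrocyte-like cells its 30.2 and 25.8 CPM also overlapped, with a ratio of 0.854 (0.635 to 1.15), while Ifit1 was 2.10-fold (1.70 to 2.62) higher in the same cells.

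Ifit3 was at 15.6 CPM (14.4 to 16.9) and 58.6 CPM (56.3 to 60.9) in microglia-like cells and at 78.5 CPM (74.4 to 82.7) and 391 CPM (381 to 401) in endothelial-like cells. Its 4.98-fold (4.69 to 5.28) difference was the largest of the 10 genes in endothelial-like cells, setting aside Oas3, which had 0 UMIs labelled WT. In neutrophil-like cells it was 13.7-fold (9.74 to 19.6) higher, at 15.4 and 210 CPM. Ifit3b, its near copy, was at 3.45 and 13.4 CPM in microglia-like cells and at 29.1 and 134 CPM in endothelial-like cells. Of the UMIs of both genes together, Ifit3b held 18.1% (15.40 to 20.98) labelled WT and 18.6% (17.25 to 20.03) labelled KO in microglia-like cells. The share was higher in endothelial-like cells, at 27.0% (25.1 to 29.1) and 25.6% (24.6 to 26.6), and in ependymal-like cells, at 24.98% (22.8 to 27.2) and 26.6% (24.5 to 28.9). The libraries were further apart in mural-like cells, at 30.7% (25.03 to 36.8) and 23.3% (19.7 to 27.1), and in neutrophil-like cells, at 35.5% (23.7 to 48.7) and 28.6% (23.8 to 33.9), although their intervals overlapped in both classes. How reads that match both copies were counted was not tested.

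Among the OAS enzymes, Oas1a makes oligoadenylates as a small enzyme of 1 catalytic unit. It was at 6.09 CPM (5.35 to 6.91) and 24.0 CPM (22.6 to 25.5) in microglia-like cells, 3.94-fold (3.42 to 4.55) higher labelled KO, and at 18.1 and 33.8 CPM in CNS-associated macrophage-like cells, 1.87-fold (1.49 to 2.35) higher. Oas2 was highest in CNS-associated macrophage-like cells in the library labelled WT, at 21.1 CPM (17.6 to 25.2), which was the top of all classes there, although the fibroblast-like interval (4.79 to 19.9) overlapped it. It was 1.57-fold (1.27 to 1.95) higher there labelled KO, at 33.2 CPM. In monocyte-like cells Oas2 went from 4 UMIs to 80, or 2.16 CPM (0.589 to 5.53) to 43.5 CPM (34.5 to 54.1). In microglia-like cells it was low in both libraries, at 2.02 and 4.99 CPM.

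Oas3, which senses long double-stranded RNA, had another distribution. It was highest in leukocytes of blood type, at 21.9 CPM (16.6 to 28.4) and 73.4 CPM (58.3 to 91.2) in neutrophil-like cells and at 7.02 and 84.8 CPM in monocyte-like cells, 12.1-fold (6.86 to 23.2) higher. T cell-like cells had 16.1 CPM (10.4 to 23.8) and 21.5 CPM (14.7 to 30.4), intervals that overlap. It was nearly missing from endothelial-like cells, with 0 UMIs labelled WT (3 UMIs would be 0.169 CPM) and 13 UMIs, or 0.873 CPM, labelled KO, although Ifit1 had 1982 and 7333 UMIs in the same cells. Fibroblast-like cells had no Oas3 UMI in either library, with upper limits of 4.29 CPM labelled WT and 3.08 CPM labelled KO (3 UMIs would be 3.49 and 2.503 CPM).

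The OAS-like genes differed from each other in where they were found. Oasl1, which restrains translation of IRF7 in mice, was highest in neutrophil-like cells, at 28.5 CPM (22.3 to 35.7) labelled WT and 73.4 CPM (58.3 to 91.2) labelled KO, and reached 64.1 CPM from 5.94 in monocyte-like cells. In microglia-like cells it was at 1.72 and 5.58 CPM. Oasl2, an OAS-like protein with ubiquitin-like repeats, was abundant in nearly every class. It had the largest difference of the 10 genes in microglia-like cells, 4.72-fold (4.32 to 5.17), from 14.7 CPM (13.5 to 15.9) to 69.3 CPM (66.8 to 71.8), and went from 84.9 to 312 CPM in endothelial-like cells.

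Eif2ak2, which encodes PKR, ranged in the library labelled WT from 15.7 CPM in B cell-like to 64.2 CPM in endothelial-like cells, and its ratios were close to each other. It was at 51.6 CPM (49.4 to 53.9) and 135 CPM (131 to 138) in microglia-like cells, a ratio of 2.61 (2.48 to 2.74). Border macrophage-like cells had 58.4 and 126 CPM (ratio 2.15, 1.91 to 2.43), and endothelial-like cells had 64.2 and 155 CPM (2.42, 2.25 to 2.60). In the 11 classes with a higher sum its ratio lay between 1.84 in astrocyte-like and 2.61 in microglia-like cells.

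Counted by class, 8 of 10 genes were higher in microglia-like cells, against 1.08% of all genes counted there, with a median log2 difference of 1.03 beside 0.00 over all genes. The other two, Oas2 and Oas3, had the lowest levels there apart from Oasl1, and their log2 differences with the added 10 CPM were 0.32, just under the limit, and 0.17. In CNS-associated macrophage-like cells 10 of 10 were higher (2.42% of all genes), in monocyte-like cells 10 of 10 (10.1%), in neutrophil-like cells 10 of 10 (13.4%) and in endothelial-like cells 9 of 9 (1.82%). Mural-like cells had 7 of 7 (4.1%), choroid plexus epithelial-like cells 6 of 7 (4.54%), fibroblast-like cells 7 of 9 (16.3%) and T cell-like cells 7 of 9 (17.1%). B cell-like cells had 3 of 3 counted genes higher (16.8%) and astrocyte-like cells 5 of 9 (10.3%). Where the share over all genes is larger, the counts of members say less. With 50 CPM added in place of 10, 5 of 10 genes were higher in CNS-associated macrophage-like cells and 4 in mural-like cells. No share over all genes is given with 50 CPM added. At 2-fold, 10 of 10 genes were higher in monocyte-like cells (0.822% of all genes), 9 of 10 in neutrophil-like cells (0.961%), 7 of 9 in endothelial-like cells (0.261%), 5 of 10 in microglia-like cells (0.167%) and 2 of 10 in CNS-associated macrophage-like cells (0.0541%).

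Ependymal-like cells, the ciliated lining of the ventricles, did not share the direction. Their summed level was 835 CPM labelled WT and 626 CPM labelled KO, a ratio of 0.749 (0.713 to 0.788), with 1 of 9 counted genes higher (4.5% of all genes) and 2 lower (4.98%). Ifit3 was the leading member, at 338 CPM (319 to 358) labelled WT and 213 CPM (201 to 226) labelled KO, and Ifit3b was at 113 CPM (102 to 124) and 77.3 CPM (70.1 to 85.1). Ifit1 was at 167 CPM (154 to 181) and 135 CPM (126 to 145), and Oasl2 at 142 CPM (130 to 156) and 120 CPM (111 to 129). For these 4 genes the ratio interval lay below 1, which it did for no other pair of a gene and a class. Ifit2 went the other way, at 19.0 and 27.7 CPM (1.46, 1.08 to 1.98).

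The class was made of 2 clusters. Cluster 25, 108 and 198 cells with a median of 19381 and 18592 UMIs, gave most of the UMIs and had a ratio of 0.719 (0.681 to 0.758), with 4 of 8 genes lower (4.37% of all genes) and 1 higher (4.78%). Cluster 2, 257 and 692 cells with a median of 962 and 892.5 UMIs, had a ratio of 1.27 (1.08 to 1.49), with 4 of 6 genes higher (18.5%) and 1 lower (23.9%). The direction of these summed ratios therefore differed between the clusters. In cells thinned to 1500 UMIs, with shallower cells left out, it did not differ. Cluster 2 then had a mean of 0.812 UMIs of the 10 genes labelled WT (69 cells) and 0.739 labelled KO (157 cells). Cluster 25 had means of 1.269 and 0.990. No interval is given for these means, so no direction in cluster 2 is drawn from them. The ratio of the class also depended on how cells were weighted and filtered. The mean over cells gave 0.965, and a stricter cell filter (113 and 260 cells) gave 1.12. Markers of other cells moved as well in the class. Summed choroid plexus markers went from 2767 to 6419 CPM, with 0 of 10 at 0 UMIs, erythroid markers from 29.8 to 774 CPM, with 0 of 6 at 0, and neutrophil markers from 162 to 399 CPM, with 4 of 11 at 0 labelled WT and 0 labelled KO. The T cell markers went from 3.51 to 21.9 CPM, with 7 of 13 at 0 labelled WT, among them Cd3e, Cd3d and Cd3g, and none labelled KO. The class's own 9 markers went from 10790 to 9913 CPM. Their part in the result was not tested.

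The make-up of the sum differed between classes, as shares of UMIs. UMIs count 3′ ends, so no scaling by gene length was applied. In microglia-like cells Eif2ak2 alone held 45.2% of the summed UMIs labelled WT and 35.6% labelled KO, and the 4 Ifit genes together held less than it did in the library labelled WT. In endothelial-like cells Ifit1 led with 26.5% and 30.1%, and Eif2ak2 held 15.3% and 9.50%. In ependymal-like cells Ifit3 held 40.4% and 34.0%, and Eif2ak2 5.21% and 5.84%. Oas3 and Oasl1 held 10.2% and 13.3% in neutrophil-like cells labelled WT, while Oas3 had no UMI and Oasl1 held 1.95% in endothelial-like cells. The share of Eif2ak2 was smaller in the library labelled KO in 9 of 12 classes.

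**Figure D4:**
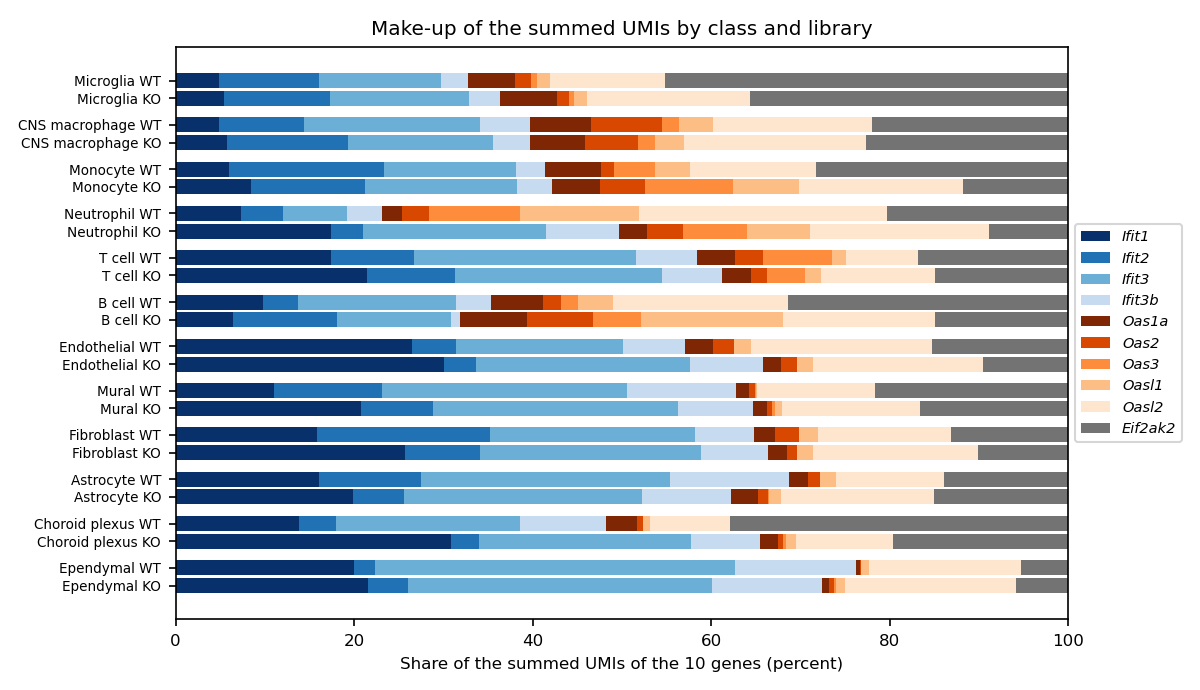
Share of the summed UMIs of the 10 genes held by each gene, in percent, with 1 bar per class and library. Blue shades are Ifit genes, red and orange shades Oas and Oasl genes and grey is Eif2ak2, which holds 45.2% in microglia-like cells labelled WT and 5.21% in ependymal-like cells labelled WT.

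The sums do not say how many cells took part, so every cell was thinned to 1500 UMIs, leaving out shallower cells, and the cells with at least 1 UMI of the 10 genes were counted. Among endothelial-like cells, 1682 labelled WT had a share of 38.8% (36.5 to 41.2), and 1747 labelled KO had 85.5% (83.7 to 87.1), with 31 and 23 cells left out. Before thinning it was 76.0% and 96.0%. In microglia-like cells it was 12.96% (11.9 to 14.1) in 3426 cells and 37.6% (36.1 to 39.1) in 4066 cells, with 192 and 124 left out, against 44.8% and 78.9% before thinning. In both classes the intervals were far apart.

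The share was lowest in B cell-like cells, at 6.12% (2.84 to 11.3) of 147 cells and 24% (14.9 to 35.3) of 75 cells, or 20% and 49.3% before thinning, at median depths of 4955 and 3795 UMIs. Microglia-like cells had medians of 8230.5 and 6892.5 UMIs and endothelial-like cells 6690 and 5146.5 UMIs. The B cell-like share, the lowest after thinning, was taken as a reference for free RNA, and it was itself higher labelled KO. Before thinning, choroid plexus epithelial-like cells were lower, at 17.9% and 37.8%. Whether B cell-like cells express the 10 genes was not tested. Of 15 other interferon-stimulated genes counted in them, 13 were higher labelled KO (16.8% of all genes). In the library labelled WT the intervals of choroid plexus epithelial-like (6.54% to 14.6%), mural-like (10.4% to 15.02%), monocyte-like (8.34% to 19.8%) and T cell-like cells (11.27% to 21.9%) overlapped the B cell-like share. Their shares were not told apart from this reference there, and whether they reflect expression was not tested. Labelled KO the same held for choroid plexus epithelial-like, at 26.0% (21.7 to 30.7), mural-like, at 27.2% (24.3 to 30.3), T cell-like, at 32.5% (26.8 to 38.7), astrocyte-like, at 36.7% (32.3 to 41.3), and ependymal-like cells. In the library labelled WT microglia-like cells lay just above the B cell-like share, and endothelial-like, ependymal-like and CNS-associated macrophage-like cells well above it. Labelled KO the microglia-like interval again began just above the end of the B cell-like interval. The part of free RNA in the microglia-like difference was not tested.

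CNS-associated macrophage-like cells went from 27.9% (23.9 to 32.1) to 50.9% (47.2 to 54.5), and from 61.9% to 84.0% before thinning. Neutrophil-like cells had 29.4% (22.7 to 36.9) and 68.7% (57.6 to 78.4), and monocyte-like cells reached 59.6% (52.1 to 66.7). In ependymal-like cells the share was 38.4% (31.2 to 46.0) of 177 cells and 38.9% (33.8 to 44.2) of 355 cells, with 188 and 535 shallower cells left out. The second of these intervals overlaps the B cell-like share labelled KO, so a change in ependymal-like cells cannot be read from them. At least 3 UMIs of the 10 genes were found in 14.1% (9.35 to 20.1) and 8.17% (5.54 to 11.5) of these ependymal-like cells, against 6.48% (5.35 to 7.76) and 40.4% (38.1 to 42.8) of endothelial-like cells. The ependymal-like intervals overlapped, and the endothelial-like ones were far apart.

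Deeper cells, thinned to 10000 UMIs, show the form of the distributions. In endothelial-like cells the median was 3 UMIs of the 10 genes labelled WT (531 cells, with 1182 shallower ones left out) and 16 labelled KO (450 cells, with 1320 left out). Cells with 0 to 2 such UMIs made up 42.9% (38.7 to 47.3) labelled WT and 0.444% (0.0539 to 1.60) labelled KO, which is 2 of these deeper cells. In microglia-like cells the median was 1 UMI in 1245 cells labelled WT and 3 UMIs in 1233 cells labelled KO, with 2373 and 2957 left out, and cells with 0 to 2 made up 89.2% (87.3 to 90.8) and 38.7% (36.0 to 41.5). Cells with 10 or more made up 1.69% (1.05 to 2.57) labelled WT and 5.43% (4.24 to 6.85) labelled KO. Cells with 20 or more were as rare in both libraries, 9 in each, at 0.723% and 0.730%. Cluster 25 of the ependymal-like class was uneven in both libraries: its median was 2 UMIs in 89 cells and 3 UMIs in 140 cells, while 11.2% (5.52 to 19.7) and 4.29% (1.59 to 9.09) had 20 or more. The highest cell had 61 UMIs labelled WT and 131 labelled KO.

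**Figure D5:**
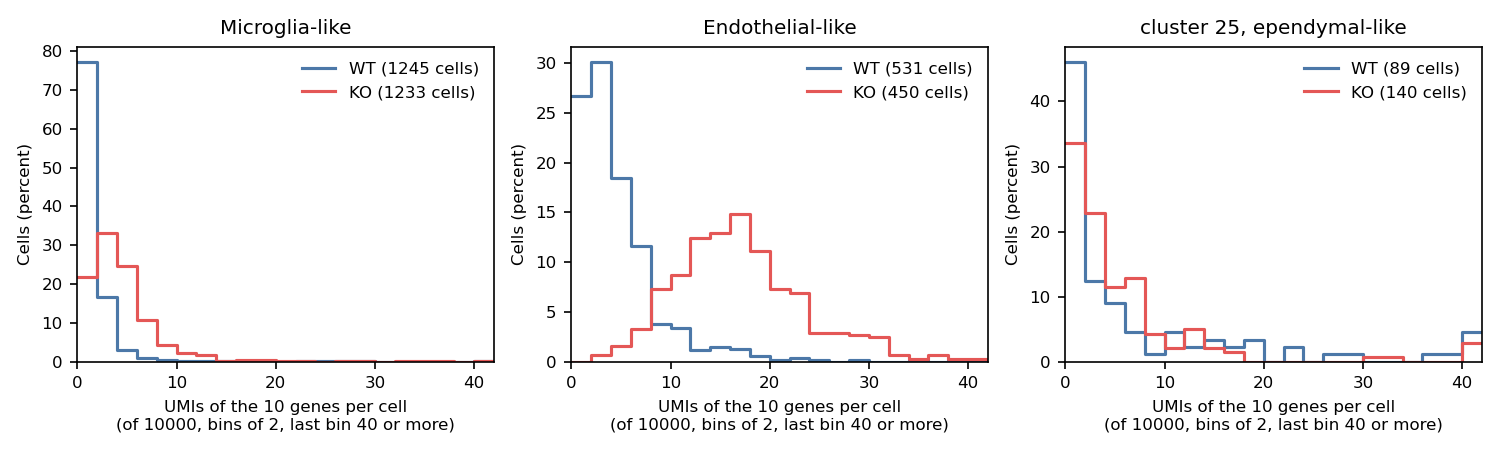
Distribution of the UMIs of the 10 genes per cell after thinning to 10000 UMIs, in bins of 2 with the last bin for 40 or more, as percent of cells, for microglia-like, endothelial-like and ependymal-like cluster 25 cells. Blue lines are the library labelled WT and red lines the library labelled KO; the endothelial-like curves hardly overlap (medians 3 and 16), the microglia-like curves differ mostly in the lowest bins, and those of cluster 25 overlap.

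The UMIs were spread over more cells in the library labelled KO in microglia-like and endothelial-like cells. The top 5% of microglia-like cells, at 1500 UMIs each, held 53.8% of the UMIs of the 10 genes labelled WT and 29.2% labelled KO. For endothelial-like cells these shares were 34.5% and 15.8%. In ependymal-like cells they were 37.8% and 41.7%. A fixed top share holds more where there are fewer UMIs, and that part was not separated. Detection of Oasl2 went with that of Ifit3 in some of these cells. Oasl2 had a UMI in 22.6% (17.0 to 29.1) of the 199 endothelial-like cells labelled WT that had an Ifit3 UMI, against 9.17% (7.75 to 10.8) of the 1483 without. Labelled KO these were 34.9% (31.5 to 38.5) and 33.7% (30.8 to 36.7), with overlapping intervals. In microglia-like cells Oasl2 was found in 7.58% (2.51 to 16.8) of 66 cells with Ifit3 and 1.96% (1.52 to 2.49) of those without labelled WT, and in 15.1% (11.4 to 19.5) and 8.28% (7.42 to 9.21) labelled KO.

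Of 5 regulators of PKR that bind double-stranded RNA or PKR itself, 1 was higher in microglia-like cells (1.08% of all genes) and none lower (1.21%). It was Adar, the RNA editing enzyme that restrains PKR, at 26.5 and 55.1 CPM, 2.08-fold (1.93 to 2.23) higher. Adar was also higher in CNS-associated macrophage-like cells, at 25.8 and 51.4 CPM, and in endothelial-like cells, at 40.3 and 67.6 CPM. Dnajc3 (0.07) and Prkra (-0.04) had log2 differences near 0. Of 10 counted genes around eIF2 alpha, which PKR phosphorylates, 0 were higher (1.08% of all genes) and 0 lower (1.21%) in microglia-like cells. Their median log2 difference was -0.07. They ranged from Eif2s1, eIF2 alpha itself, at 0.07 and the sister kinase Eif2ak1 at 0.05 to the sister kinase Eif2ak3 at -0.13 and the phosphatase subunit Ppp1r15a at -0.18.

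Of 3 enzymes that make the cap marks IFIT1 reads, none was counted as higher (1.08% of all genes) or lower (1.21%) in microglia-like cells. Cmtr1, the first cap methyltransferase and itself known as an interferon-stimulated gene, was at a log2 difference of 0.30, Cmtr2 at 0.07 and Rnmt at 0.05. Of 8 relatives of the families present in the matrices, 4 had 20 UMIs in microglia-like cells and 0 counted as higher (1.08% of all genes) or lower (1.21%). They were Oas1c (log2 0.24), Oas1g (0.16), Ifit1bl1 (0.06) and Ifit1bl2 (0.02), all at low levels, with Oas1c the highest at 3.35 and 5.79 CPM.

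Some of the genes that carry the interferon signal were higher. In microglia-like cells 5 of 15 counted receptor and signalling genes were higher (1.08% of all genes) and none lower (1.21%). Among the highest was Usp18 (log2 1.21; 9.87 and 36.0 CPM), a feedback inhibitor of the receptor, and the lowest were the kinase Jak1 (-0.11) and the receptor chain Ifngr1 (-0.19). Of 21 interferon genes, Ifnb1 alone had 20 UMIs in microglia-like cells, with 5 UMIs in 2 cells labelled WT and 68 in 9 cells labelled KO. A single cell held 52 of these 68, so no level is drawn from them. No Ifnb1 UMI was found in endothelial-like, ependymal-like or CNS-associated macrophage-like cells.

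Other interferon-stimulated genes outside the families were higher in 21 of 22 cases in microglia-like cells (1.08% of all genes), 16 of 22 in CNS-associated macrophage-like cells (2.42%) and 19 of 22 in endothelial-like cells (1.82%), where 1 was lower (1.47%). They ran from Rtp4 (log2 2.19) and Ifi27l2a (2.14) to Cmpk2 (0.36) and Ifi44 (0.24) in microglia-like cells. In ependymal-like cells 5 of 22 were higher (4.5% of all genes) and 4 lower (4.98%). Ifi27l2a went from 51.1 to 181 CPM in ependymal-like cells, while Ifi44 went from 59.6 to 30.7 CPM and Rsad2 from 70.1 to 50.5 CPM.

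Over the 24 sums of a class and a library, the 5 other genes whose log2(CPM + 10) was most like the mean of the 10 genes, among 12227 genes with at least 1000 UMIs, were Usp18, Isg15, Rtp4, Rsad2 and Irf7, with Pearson r from 0.896 to 0.944. Within the set, Oasl2 was most like the mean of the other 9 (r = 0.938) and Oas3 least (0.356), with the rest between 0.713 and 0.836. These points share 2 libraries, and the correlations are a description.

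Other measures also differed between the libraries. Summed choroid plexus markers, which none of the following cells should make, went from 1966 to 3007 CPM in microglia-like cells, from 1977 to 3402 CPM in CNS-associated macrophage-like cells and from 2286 to 4171 CPM in endothelial-like cells, with 0 of 10 markers at 0 UMIs. Endothelial markers in microglia-like cells went from 261 to 232 CPM, and in CNS-associated macrophage-like cells from 581 to 290 CPM. In cells without a UMI of the 12 endothelial markers the ratio of the summed level was 3.38 (3.096 to 3.70) in 832 and 1087 microglia-like cells and 2.61 (2.20 to 3.104) in 130 and 216 CNS-associated macrophage-like cells. Markers of monocytes in microglia-like cells went from 13.1 to 21.1 CPM, with 0 of 9 at 0. Erythroid markers in endothelial-like cells went from 2571 to 577 CPM. Of 16 immediate-early and dissociation genes, 7 were lower and none higher in microglia-like cells, where 1.21% of all genes were lower, from Fos (log2 0.20) and Atf3 (0.00) to Ier2 (-0.65) and Hspa1b (-0.74). In CNS-associated macrophage-like cells 7 of the 16 were lower (4.94% of all genes), in monocyte-like cells 5 (12.4%), in neutrophil-like cells 16 (26.9%), in endothelial-like cells 4 (1.47%) and in choroid plexus epithelial-like cells 11 (13.4%), and none was higher in these classes. T cell-like cells had 6 higher (17.1%) and 2 lower (9.97%), with a median log2 difference of 0.24, and astrocyte-like cells 5 higher (10.3%) and 1 lower (9.81%), with a median of 0.22. The other classes had some higher and some lower. The part of handling, of free RNA and of single animals in the differences of the 10 genes was not tested, and with 1 library a group they cannot be told apart from genotype.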

How the data were processed

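The authors deposited 1 matrix per library of raw counts (UMIs of each gene in each barcode); its file headers name Cell Ranger 7.0.1. STAR, Seurat 3.1.1 and GRCm38/mm10 are named in the submitters' processing notes. How reads of near-identical genes were treated is not given in the sources used here. Cells with at least 500 UMIs, at least 300 genes and at most 10% mitochondrial UMIs were kept, Scrublet calls were removed (expected rate 0.8% per 1000 barcodes), and both libraries were clustered together (scanpy 1.11.5; counts scaled to 10000 and logged, 2000 variable genes without 310 interferon-stimulated, sex-linked and mitochondrial genes and Cd200r1, 30 components, 15 neighbours, Leiden resolution 1). Clusters were named from at least 3 markers, and classes needed 50 cells in each library.

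UMIs were summed per class and library and divided by the total (CPM). Intervals are exact Poisson, Clopper-Pearson (shares) and conditional binomial (ratios), from scipy 1.17.1. The calculation was tested on simulated data. No test between the groups was possible with 1 library each. The named genes are the 10 members, of each list the 2 highest and 2 lowest in microglia-like cells, and the 5 genes most like the member mean; some genes that this rule names are not reported here. Further list genes named for ependymal-like cells were chosen after their values were seen. Members and lists were chosen with earlier results of these data known. Alternatives covered the cell filters, doublets, thinning, scaling, clustering, weighting of cells, the added CPM and the UMI minimum. Counting cluster 9 with endothelial-like cells, cells without endothelial marker UMIs and the 10000 UMI depth were added after seeing the data.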

Additional observations from a re-analysis of the deposited data

Results flagged for a closer look

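The ratio of the summed level of the 10 genes in ependymal-like cells, 0.749, lay below 1, while it lay above 1 in each of the other 11 classes. The difference between the classes was not tested, since there is 1 library a group, and the value changed sides under 1 alternative.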

How the results depend on the processing

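No paired analysis was possible because each group has 1 library. Ratios below are of the summed level, labelled KO over labelled WT, and counts are of genes that were higher unless said to be lower. No share over all genes is given for the counts under these alternatives, so they show only how the counts moved. Scaling over genes with under 1% of the UMIs moved no ratio or count beyond its limits. The direction changed once, in ependymal-like cells under the stricter cell filter (1.12), which also gave 3 higher and 1 lower there, astrocyte-like 2.29, choroid plexus epithelial-like 2.40, endothelial-like 3.70, microglia-like 3.46, monocyte-like 7.48 and T cell-like 1.98; fibroblast-like cells were then too few. No cell filter gave CNS-associated macrophage-like 2.27, choroid 4.57, endothelial 3.76, fibroblast 3.88, monocyte 6.65 and ependymal 0.796, with 3 higher there. Thinning to 1500 UMIs gave astrocyte 1.92, B cell 12.04, CNS-associated macrophage 1.77, choroid 2.53, endothelial 3.38, ependymal 0.854, fibroblast 4.07 and monocyte 6.91, with counts of 0 in B cell and ependymal, 4 in fibroblast, 6 in neutrophil and 3 in T cell classes, where fewer UMIs leave fewer genes counted. The mean over cells gave astrocyte 2.10, B cell 6.47, CNS-associated macrophage 1.87, choroid 2.12, endothelial 3.496, ependymal 0.965 (4 higher, 1 lower), fibroblast 2.13, microglia 3.13, monocyte 8.66, mural 2.38 and neutrophil 5.46. Without the top 1% of cells they were astrocyte 2.27, CNS-associated macrophage 2.30, endothelial 4.14, ependymal 0.699 (0 higher), microglia 3.66 and monocyte 8.50. Classes by the marker UMIs of each cell gave astrocyte 1.30, CNS-associated macrophage 2.48, endothelial 3.46, mural 2.30 and 4 lower in ependymal cells. These classes differed in size from the main ones. Choroid held 3351 and 5098 cells (418 and 555 in the main classes) and CNS-associated macrophage 108 and 96 (538 and 801). Monocyte, T cell, B cell and fibroblast classes then had under 50 cells in at least 1 library and were not compared. Resolution 2 gave astrocyte 1.54 and CNS-associated macrophage 1.95. Interferon genes among the variable genes gave CNS-associated macrophage 2.39 and monocyte 7.13. Cells without endothelial marker UMIs gave CNS-associated macrophage 2.61, and counting cluster 9 gave endothelial 3.62. The ependymal count was 3 with doublets kept, 3 with 1 CPM added and 0 with 50 CPM added, which gave 5 in CNS-associated macrophage and 4 in mural classes. Without the UMI minimum the B cell count was 9. The ratio of the shares of endothelial-like cells with a UMI was 2.63 at 1000 and 1.76 at 3000 UMIs. The cause of these changes was not tested. Depth limits Oas3 in fibroblast-like cells and most genes in B cell-like cells. In endothelial-like cells Oas3 had too few UMIs to be counted as higher or lower, but its level labelled WT had an upper limit of 0.207 CPM.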
